A study of Homo sapiens with 24 samples.

Results

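SEMA3A, FGF9, ANKRD22 and HS3ST1 are 4 genes whose transcripts were lower in HCT116 cells after auxin-induced loss of DNMT1, or of UHRF1 together with DNMT1, than in WT cells given the same treatment. They were found by the Ensembl identifiers of the count tables among 58735 genes, and all 4 passed the filter on low counts in every comparison made. They were chosen by their day 4 differences from WT in DNMT1-AID and compound-line libraries, so values that use those libraries are described without a test. Tests are given for day 0 and for UHRF1-AID cells over time. Which of these genes were already lower at day 0, before any auxin, in a line that carried a tag is the main question here.

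HCT116 is a human colorectal carcinoma line. The parental cells carry a doxycycline-inducible OsTIR1, the plant protein through which auxin triggers degradation of a protein bearing an auxin-inducible degron (AID), and serve as WT. Knock-in with Cas9 fused the degron and mClover to the C-terminus of endogenous UHRF1 (UHRF1-AID), the degron and mRuby2 to the N-terminus of DNMT1 (DNMT1-AID), or made both fusions (UHRF1-AID/DNMT1-AID, the compound line). The study's reporting summary states that biological replicates of each tagged genotype came from 3 different clones, and counts the RNA-seq as biological replicates. WT is not among the lines listed there. The p-values measure the spread between libraries, which in tagged lines includes differences between clones. The labels do not say whether a replicate number stands for the same clone on both days. RNA was sequenced at day 0 and at day 4 of auxin, given together with doxycycline after a pretreatment with doxycycline and the auxin antagonist auxinole, in 8 groups of 3 libraries.

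UHRF1 recognises newly replicated DNA, in which only the parental strand is methylated, and brings in DNMT1, which copies the methylation to the daughter strand. Methylation at a promoter usually accompanies silencing, so genes that fall when the machinery is lost are the less familiar side of its removal. SEMA3A encodes a secreted class 3 semaphorin that repels growing axons and migrating cells by binding neuropilin-1, with a plexin as the signalling partner. FGF9 encodes a secreted fibroblast growth factor that acts on receptors such as FGFR3 together with heparan sulfate, and HS3ST1 encodes the heparan sulfate 3-O-sulfotransferase that makes the antithrombin-binding site. ANKRD22 encodes a small protein with ankyrin repeats.

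In hg38, SEMA3A (ENSG00000075213) spans chromosome 7 from 83955777 to 84492724 on the minus strand and FGF9 (ENSG00000102678) chromosome 13 from 21671383 to 21704498 on the plus strand. ANKRD22 (ENSG00000152766) spans chromosome 10 from 88822132 to 88851818 and HS3ST1 (ENSG00000002587) chromosome 4 from 11393150 to 11429765, both on the minus strand. RefSeq promoters (GRCh38.p14, a window of 300 bases that ends just after the start RefSeq gives) were matched for ANKRD22 and HS3ST1, the pair whose levels followed each other most closely over the 24 libraries. No promoter window was found for SEMA3A or FGF9 in the reference used, so only these are shown. They differ in the dinucleotide that DNMT1 methylates, CG, which is printed in capitals and reads the same on both strands. The ANKRD22 promoter lies at chr10:88851795-88852094 and the HS3ST1 promoter at chr4:11428845-11429144, both on the minus strand and printed 5′ to 3′. The ANKRD22 window reaches just into the gene span given above, while RefSeq starts HS3ST1 inside that span, so its window lies within it.
ANKRD22: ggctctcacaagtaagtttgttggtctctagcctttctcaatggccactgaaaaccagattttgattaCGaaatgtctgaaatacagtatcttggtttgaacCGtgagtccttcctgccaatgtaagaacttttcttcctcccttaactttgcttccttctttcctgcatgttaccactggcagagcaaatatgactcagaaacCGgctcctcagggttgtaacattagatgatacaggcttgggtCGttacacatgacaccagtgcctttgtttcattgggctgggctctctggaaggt
HS3ST1: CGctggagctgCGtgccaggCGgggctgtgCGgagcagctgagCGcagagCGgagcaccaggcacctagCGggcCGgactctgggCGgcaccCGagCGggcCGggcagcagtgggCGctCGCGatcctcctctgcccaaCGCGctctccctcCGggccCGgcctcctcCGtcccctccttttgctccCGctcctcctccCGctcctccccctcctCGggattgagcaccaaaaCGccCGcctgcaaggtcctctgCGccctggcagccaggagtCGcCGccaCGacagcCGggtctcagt
The ANKRD22 window held 4 CG dinucleotides, 0.27 times the number that its base composition predicts, and 29.64% of the 35116 promoters of this length held 4 or fewer. The HS3ST1 window held 30, at 0.77 times the predicted number, and 22.42% of promoters held 30 or more, beside a median of 14. These are counts of letters, and methylation was not analysed here.

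Libraries held between 15824804 and 25073821 counts on genes. Levels are given as CPM, a gene's share of its library's counts after TMM scaling over the 24 libraries. File headers name 1 alignment folder for 15 libraries, which are all of day 0 plus UHRF1-AID at day 4, and another for the other 9, which also hold ERCC spike-in sequences. Comparisons that cross these folders are UHRF1-AID against WT at day 4 and day 4 against day 0 in the other 3 lines, and in these a batch and the biological difference cannot be told apart. Of 10 epithelial markers 7, EPCAM and CDH1 among them, were at 1 CPM or more in every library, while VIL1 and CEACAM5 were under 1 CPM in all. The summed level of 10 epithelial markers was between 3951 and 8292 CPM, against 1.61 to 20.7 CPM for 6 fibroblast markers, 0 to 3.13 CPM for 4 leukocyte markers and 0 to 1.94 CPM for 3 endothelial markers. UHRF1 transcript was at 73.5 ± 20.7 CPM in WT and 169 ± 22.6 CPM in UHRF1-AID cells at day 0 (SD, n = 3), and DNMT1 transcript at 142.5 ± 57.3 CPM in WT, 44.5 ± 25.3 CPM in DNMT1-AID and 65.4 ± 21.7 CPM in the compound line (SD, n = 3). The degron acts on the protein, so these levels do not report depletion.

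Per kilobase of exon, HS3ST1 was the most abundant member in WT cells at day 0, at 33.4 CPM per kb. ANKRD22 followed at 4.95, SEMA3A at 2.97 and FGF9 at 0.677 CPM per kb. The number of reads behind a library's value ran from 7 for ANKRD22 in the compound line at day 4 to 7042 for HS3ST1 in DNMT1-AID cells at day 0, so the lowest ANKRD22 and FGF9 levels carry the largest counting error. In bulk RNA, fewer cells that express a gene and less RNA per cell cannot be told apart.

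SEMA3A was the member that stood lower at day 0 by the widest margin, and it did so in DNMT1-AID cells. At day 0 its level was 27.0, 28.1 and 28.3 CPM in the WT libraries and 4.66, 5.07 and 2.99 CPM in the DNMT1-AID libraries, so the highest DNMT1-AID library lay far below the lowest WT library. The log2 fold change was -2.75 (standard error 0.20), with an adjusted p of 0.0214 by edgeR's quasi-likelihood test. SEMA3A was the only gene called in either direction, 0.00723% of the 13833 tested, with 711 genes at an unadjusted p under 0.05 and 5 called by DESeq2, where called means an adjusted p under 0.05 with an absolute log2 fold change over 1. This difference was known from earlier work on these libraries when the 4 genes were chosen, so it is no independent evidence for them. The size was steady, between -2.78 and -2.55 over 8 settings, but the call was not. It was lost with all 24 libraries in 1 fit (adjusted p = 0.265), with a correction for gene length (0.155) and with the replicate number as a block (0.955), while over the 8 settings the adjusted p of edgeR or DESeq2 ran from 1.22e-27 to 0.955. Without 1 library at a time it held only without DNMT1-AID replicate 3 (adjusted p = 0.00976) and was lost without any of the other 5 (adjusted p from 0.0982 to 0.226), with log2 fold changes between -2.89 and -2.56. Each library's deviation from the day 0 mean was correlated with gene length over 15699 genes, as a description. Spearman's rho was -0.269, -0.232 and 0.093 in DNMT1-AID replicates 1, 2 and 3. It was 0.278, 0.265 and -0.266 in WT replicates 1, 2 and 3. The correction for gene length did not keep the scaling of each library, so it cannot show how much of this trend is in the result, which was not tested. The same limit holds for every value given below with this correction, and for ranges over 8 settings, which include it.

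In the other tagged lines at day 0 single libraries set the mean. UHRF1-AID libraries had 10.8, 45.6 and 14.6 CPM of SEMA3A, and compound-line libraries 40.7, 7.43 and 6.93 CPM. In each line 2 libraries lay below every WT library and 1 lay above all of them. Neither line was called against WT. In UHRF1-AID libraries the difference was -0.22 on the log2 scale (standard error 0.50) and edgeR's adjusted p 0.959, and in the compound line these were -0.60 (standard error 0.67) and 0.677. Without compound-line replicate 1 the latter was -1.96 with an adjusted p of 0.0042, and the gene was called. Without UHRF1-AID replicate 2 the UHRF1-AID difference was -1.12 (adjusted p = 0.995 by edgeR), while it turned to 0.13 without replicate 1 and to 0.04 without replicate 3.

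At day 4 the SEMA3A level of WT cells was 12.3, 12.3 and 12.0 CPM, below every WT library of day 0 (log2 fold change -1.21, standard error 0.12). DNMT1-AID cells had 3.45, 2.31 and 1.78 CPM, again below every WT library, with a log2 fold change of -2.26 (standard error 0.23) against WT of the same day. The difference between DNMT1-AID and WT was thus 0.49 smaller on the log2 scale at day 4 than at day 0. UHRF1-AID cells had 6.39, 14.1 and 9.35 CPM and compound-line cells 15.8, 2.58 and 2.69 CPM, both overlapping WT. In the compound line the difference from WT was -0.79 (standard error 0.83), and -2.22 without its replicate 1, the same replicate number that was high at day 0.

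FGF9 was not called lower than WT in any tagged line at day 0, and all UHRF1-AID libraries were above WT. WT cells had 3.37, 2.71 and 3.13 CPM at day 0, and UHRF1-AID cells 12.2, 3.50 and 6.56 CPM. All 3 UHRF1-AID libraries lay above the WT libraries, yet the gene was not called, with a log2 fold change of 1.29 (standard error 0.42), an unadjusted p of 0.0163 and an adjusted p of 0.942. In that comparison edgeR called 0.0% of 13894 genes lower and 0.0% higher, with 512 at an unadjusted p under 0.05, and DESeq2 called 7. Compound-line cells had 6.76, 5.12 and 3.25 CPM and a log2 fold change of 0.71 (standard error 0.28, edgeR adjusted p = 0.201). Under the correction for gene length it was 1.25 (edgeR adjusted p = 0.0138, in a range of 0.0138 to 0.439 over 8 settings). There the median of all genes was 0.285, against 0.011 in the main fit, so this value does not show an effect of gene length. DNMT1-AID cells had 1.19, 2.01 and 3.76 CPM, with 2 libraries below and 1 above all WT libraries, and a log2 fold change of -0.42 (standard error 0.41, edgeR adjusted p = 0.812).

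By day 4 FGF9 had moved in opposite directions in WT and in the compound line. WT libraries were at 6.68, 6.12 and 5.68 CPM, each above every WT library of day 0 (log2 fold change 0.98, standard error 0.19). Compound-line libraries were at 2.13, 1.48 and 2.20 CPM, each below every library of that line at day 0 (log2 fold change -1.38, standard error 0.28). DNMT1-AID libraries were at 1.19, 1.04 and 1.92 CPM, which overlapped their own day 0 range (log2 fold change -0.76, standard error 0.45). Against WT of the same day FGF9 was lower in DNMT1-AID cells, with a log2 fold change of -2.15 (standard error 0.28), and in the compound line, with -1.66 (standard error 0.25). The groups did not overlap in either comparison (genes called lower were 0.28% and 2.49%), and the WT level it is set against was itself higher than at day 0. UHRF1-AID cells had 7.39, 1.68 and 3.75 CPM, a range that contained the WT values (log2 fold change -0.49, standard error 0.44, and between -1.15 without replicate 1 and -0.14 without replicate 2).

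ANKRD22 was lower in the compound line at day 0 and lower in all 3 depleted lines at day 4. At day 0 WT libraries had 7.96, 7.15 and 10.6 CPM and compound-line libraries 4.91, 4.32 and 2.57 CPM, without overlap. The log2 fold change was -1.12 (standard error 0.26) with an adjusted p of 0.0567 by edgeR, just short of a call, in a comparison where 0.656% of 14023 genes were called lower. Over 8 settings the size was between -1.17 and -1.11, with adjusted p from 0.000554 to 0.105, and 4 of the 8 called the gene. UHRF1-AID libraries had 2.35, 5.35 and 7.51 CPM and overlapped WT with 1 library (log2 fold change -0.73, standard error 0.37, edgeR adjusted p = 0.942). DNMT1-AID libraries had 7.45, 8.63 and 4.87 CPM (log2 fold change -0.33, standard error 0.25, edgeR adjusted p = 0.801).

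At day 4 ANKRD22 stood at 8.10, 6.0 and 7.22 CPM in WT cells, within or just below their day 0 range. The level was 1.00, 1.58 and 0.903 CPM in UHRF1-AID cells, 2.20, 1.70 and 2.12 CPM in DNMT1-AID cells and 0.439, 0.709 and 0.979 CPM in the compound line. Every depleted library was below every WT library of either day, and the DNMT1-AID libraries lay above those of the other two depleted lines. Log2 fold changes against WT were -2.58 (standard error 0.29) in UHRF1-AID, -1.81 (standard error 0.24) in DNMT1-AID and -3.30 (standard error 0.30) in compound-line cells. The percentages of all genes called lower were 1.22, 0.28 and 2.49 in that order. The log2 fold change against WT at day 4 minus that at day 0 was -1.85, -1.48 and -2.18.

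HS3ST1 was lower in the compound line on both days and was not lower in DNMT1-AID cells on either. WT libraries had 264, 273 and 280.2 CPM at day 0 and compound-line libraries 203, 156 and 140.1 CPM, without overlap. The log2 fold change was -0.71 (standard error 0.14) with an edgeR adjusted p of 0.039, which passes the p threshold but not the fold threshold of a call. Over 8 settings it lay between -0.73 and -0.44 with adjusted p from 6.76e-05 to 0.30, the smallest size under the correction for gene length and the largest p with all 24 libraries in 1 fit. Under the length correction the median of all genes in this comparison was 0.285, so the smaller size does not show an effect of gene length. UHRF1-AID libraries had 279, 193 and 230.4 CPM (log2 fold change -0.20, standard error 0.14, edgeR adjusted p = 0.942). DNMT1-AID libraries had 364, 322 and 227 CPM (log2 fold change 0.12, standard error 0.16, edgeR adjusted p = 0.836). Both overlapped WT.

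At day 4 HS3ST1 was at 125, 134 and 125 CPM in WT cells, below every WT library of day 0 (log2 fold change -1.11, standard error 0.10). Compound-line cells had 26.8, 24.1 and 20.3 CPM, the lowest levels of the gene in the series, with a log2 fold change of -2.43 (standard error 0.11) against WT and -2.82 (standard error 0.16) against their own day 0. UHRF1-AID cells had 116, 31.2 and 49.3 CPM, all below WT (1.22% of genes called lower) but unevenly so, and the log2 fold change of -0.93 (standard error 0.45) became -1.65 without replicate 1. DNMT1-AID cells had 99.3, 225 and 113 CPM, with 2 libraries below and 1 above WT, and a log2 fold change of 0.19 (standard error 0.35) that turned to -0.27 without replicate 2. HS3ST1 belongs to the set through the compound line, as SEMA3A belongs to it through DNMT1-AID cells.

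**Figure D1:**
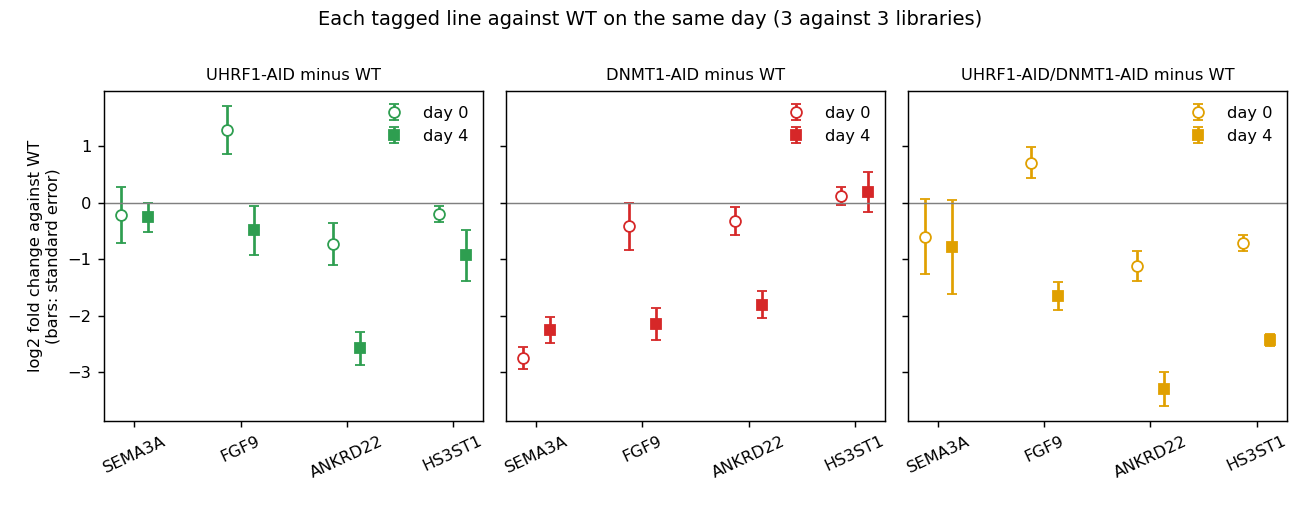
Log2 fold change of each tagged line against WT on the same day for the 4 genes, with standard errors (3 libraries against 3); open circles are day 0 and filled squares day 4. In DNMT1-AID cells SEMA3A was about as low at day 0 (-2.75) as at day 4 (-2.26). FGF9 and ANKRD22 were at -0.42 and -0.33 at day 0 (standard errors 0.41 and 0.25, neither called) and at -2.15 and -1.81 at day 4.

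Set side by side, the members fell into 3 day 0 patterns. SEMA3A was below WT in all DNMT1-AID libraries, ANKRD22 and HS3ST1 were below WT in all compound-line libraries, and FGF9 was below WT in all libraries of no tagged line. How many of all genes were separated from WT in this way was not counted. Here and elsewhere, the percentages given beside groups without overlap are shares of genes called, a different measure, so they do not show how rare such a separation is. At day 0, 1 of the 4 genes was called lower in DNMT1-AID cells and 0 in either of the other tagged lines (backgrounds of 0.00723% in the first, and of 0.0% and 0.656% in UHRF1-AID and compound-line cells). At day 4 the log2 fold changes chose the members, and their place among other genes is a description. In DNMT1-AID cells HS3ST3B1 at -2.46 and TATDN2P2 at -2.18 stood on either side of SEMA3A, ENTREP1 at -1.89 came after FGF9, and EBF2 at -1.87 and PCDHAC1 at -1.68 flanked ANKRD22, where 0.28% of 13582 genes were called lower. In the compound line, with 2.49% of 14219 genes called lower, ANKRD22 lay between ITGB1-DT at -3.39 and MMP7 at -3.18, HS3ST1 between FOXL1 at -2.44 and DMTF1-AS1 at -2.41, and FGF9 between LIF at -1.66 and EVA1A at -1.65. At the fold threshold the last gene inside was DANCR at -1.0 and the first outside CA2 at -0.98 in DNMT1-AID cells, and LRIG3 and SH2D5, both at -1.0 after rounding, in the compound line. All day 4 contrasts share the WT libraries, so they are not independent of each other.

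Between the tagged lines at day 0, none of the 4 genes was called. SEMA3A was lower in DNMT1-AID than in UHRF1-AID cells without overlap (log2 fold change -2.53, standard error 0.60, edgeR adjusted p = 0.236), where 0.0% of 13913 genes were called lower (2592 at an unadjusted p under 0.05), and DESeq2 gave -2.52 with an adjusted p of 0.0347 in a range of 0.0347 to 0.29 over 8 settings. Without UHRF1-AID replicate 2, its highest library, the difference was -1.63. The compound line had more SEMA3A than DNMT1-AID cells without overlap, by 2.15 (standard error 0.80, edgeR adjusted p = 0.332), which fell to 0.79 without compound-line replicate 1. It had less HS3ST1 without overlap (log2 fold change -0.84, standard error 0.20, edgeR adjusted p = 0.281), with 0.0214% of 14007 genes called lower and 0.00714% higher. FGF9 was at 1.13 (standard error 0.45, edgeR adjusted p = 0.332). Without DNMT1-AID replicate 3 the HS3ST1 difference was -1.0 (adjusted p = 0.0106) and the FGF9 difference 1.69 (adjusted p = 0.00313), and both genes were then called, as were 94 genes lower and 1017 higher among all genes, against 3 and 1 with that library. The FGF9 difference between DNMT1-AID and UHRF1-AID cells was -1.71 on the log2 scale (standard error 0.57, edgeR adjusted p = 0.236), which was called without the filter (adjusted p = 0.000204), by DESeq2 (0.0476) and, at -2.28, without DNMT1-AID replicate 3 (0.0476), where the genes called lower rose from 0 to 138 without the filter, 29 by DESeq2 and 1127 without that library, in a range over 8 settings of 0.000204 to 0.439. Against UHRF1-AID cells the compound line had log2 fold changes between -0.57 and -0.37 for the 4 genes, with edgeR adjusted p between 0.215 and 0.866 and 0.127% of 14217 genes called lower.

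ANKRD22 and HS3ST1 fell in UHRF1-AID cells over the 4 days of auxin. Between day 0 and day 4 in UHRF1-AID cells ANKRD22 changed from 5.07 ± 2.6 to 1.16 ± 0.363 CPM (SD, n = 3) and HS3ST1 from 234 ± 43.3 to 65.5 ± 44.7 CPM (SD, n = 3). The log2 fold changes were -2.10 (standard error 0.43, edgeR adjusted p = 0.00319) and -1.80 (standard error 0.42, edgeR adjusted p = 0.00815), both called, in a comparison where 9.82% of 14391 genes were called lower. HS3ST1 was not called without the filter on low counts (adjusted p = 0.105, in a range of 1.52e-11 to 0.105) or without UHRF1-AID day 4 replicate 2 (-1.49, adjusted p = 0.0547). The SEMA3A value was -1.21 on the log2 scale (standard error 0.53, edgeR adjusted p = 0.0919) and the FGF9 value -0.76 (standard error 0.56, edgeR adjusted p = 0.297), which ran from -1.41 without day 4 replicate 1 to -0.20 without day 0 replicate 1. With same-numbered libraries of the 2 days as pairs, SEMA3A was called at -1.01 (edgeR adjusted p = 0.00633). The labels do not give this pairing, which was chosen from the libraries' own deviations, so that call is no independent evidence. It was also called without day 0 replicate 1, at -1.56 (adjusted p = 0.029), and with the correction for gene length, at -1.05 (adjusted p = 0.00475, the lowest over 8 settings, the highest being 0.334). In WT cells, which lack the tag but received the same agents, the log2 fold change was -0.29 (standard error 0.20) for ANKRD22 and -1.11 (standard error 0.10) for HS3ST1, and WT crosses the alignment folders while UHRF1-AID does not.

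In the other lines over time, FGF9 was the only member that was higher at day 4, and only in WT. In WT the libraries of the 2 days did not overlap for SEMA3A and HS3ST1, which were lower at day 4, and for FGF9, which was higher, where 6.53% of all genes were called lower and 5.37% higher. In DNMT1-AID cells they did not overlap for ANKRD22 (log2 fold change -1.80, standard error 0.28) and HS3ST1 (-1.07, standard error 0.36), with 6.68% of genes called lower. In the compound line they did not overlap for FGF9, for ANKRD22 (-2.47, standard error 0.35) and for HS3ST1, with 11.5% of genes called lower. SEMA3A in the compound line was at -1.39 with a standard error of 1.21, and at -0.05 without day 0 replicate 1, its highest library of that day, and larger in size without day 4 replicate 1.

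Same-numbered libraries were compared between the days. UHRF1-AID replicate 2 and compound-line replicate 1 had the highest SEMA3A of their line on both days, and day 4 levels were 0.388, 0.347 and 0.389 times those of day 0 in compound-line replicates 1, 2 and 3. In UHRF1-AID cells the order of the 3 libraries was the same on both days for SEMA3A, FGF9 and HS3ST1, and in the compound line for HS3ST1. In WT and DNMT1-AID cells no member kept the order. Over the 4 genes and 4 lines the order was the same in 4 of 16 cases. Within the compound line HS3ST1 fell evenly, to 0.132, 0.154 and 0.145 times its day 0 level, while ANKRD22 fell to 0.0893, 0.164 and 0.381 times.

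The partners of these genes were examined with lists of 27 semaphorin pathway genes, 32 FGF pathway genes and 44 heparan sulfate genes, members left out. At day 0 the single call in any list was NRP1, the SEMA3A receptor neuropilin-1, in the compound line, 1 of 24 semaphorin genes tested, where 0.656% of all genes were called lower, with a list median of 0.16 against 0.01 for all genes. NRP1 had 5.86, 10.2 and 5.37 CPM in WT and 1.62, 2.02 and 1.67 CPM in the compound line, without overlap (log2 fold change -2.02, standard error 0.30, edgeR adjusted p = 0.0161). It lost the call with all 24 libraries in 1 fit (adjusted p = 0.0689) and without any of the 3 compound-line libraries (adjusted p from 0.0618 to 0.107). At day 4 NRP1 had 15.0, 23.1 and 22.2 CPM in WT and 1.44, 0.645 and 0.918 CPM in the compound line (log2 fold change -4.31, standard error 0.26, edgeR adjusted p = 2.77e-10). DNMT1-AID cells had 8.27, 5.05 and 6.94 CPM (log2 fold change -1.57, standard error 0.21, edgeR adjusted p = 0.000449), a call lost with all 24 libraries in 1 fit (adjusted p = 0.109). UHRF1-AID cells had 17.7, 1.47 and 8.26 CPM and were not called (log2 fold change -1.10, standard error 0.74, edgeR adjusted p = 0.353).

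Of 23 semaphorin genes tested at day 4, 2 were lower and 0 higher in DNMT1-AID cells, where 0.28% of all genes were called lower and 2.29% higher. In the compound line 2 were lower and 5 higher, where 2.49% of all genes were called lower and 9.21% higher. The second lower gene in both was DPYSL3, a cytosolic collapsin response mediator protein, with log2 fold changes of -1.09 (standard error 0.15) and -1.14 (standard error 0.15). The higher genes were the ligands SEMA3F and SEMA3G, the receptor PLXNA3, the co-receptor L1CAM and MICAL3, with log2 fold changes between 1.10 for SEMA3F and 1.56 for SEMA3G. Scaled to the spike-in counts, SEMA3F (0.63), PLXNA3 (0.79) and MICAL3 (0.96) were no longer called. List medians were 0.27 in DNMT1-AID cells and 0.39 in the compound line, against 0.00 and 0.02 for all genes. Calls of 3 of these genes depended on single libraries. L1CAM was not called without WT replicate 2 or any compound-line library (adjusted p from 0.0916 to 0.107), PLXNA3 without WT replicate 2 (0.0599) or compound-line replicate 1 (0.0544), and SEMA3F was at 0.98 without WT replicate 1. DPYSL3 in DNMT1-AID cells was at -1.0 and not called without WT replicate 2. In UHRF1-AID cells 2 genes were higher, SEMA3G and RND1, and 0 lower, where 5.77% of all genes were called higher and 1.22% lower. SEMA3G was not called with the length correction (0.0732) or without WT replicate 1 or 2 or UHRF1-AID replicate 1 or 3 (0.0951 to 0.146).

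In the FGF list FGFR3, a receptor that FGF9 binds, was called higher at day 4 in the compound line and in UHRF1-AID cells. FGFR3 had 29.4, 33.8 and 34.7 CPM in WT at day 4, 83.3, 78.0 and 90.1 CPM in the compound line (log2 fold change 1.37, standard error 0.11, edgeR adjusted p = 2.76e-09) and 97.4, 71.0 and 72.2 CPM in UHRF1-AID cells (1.33, standard error 0.15, edgeR adjusted p = 0.000524). With spike-in scaling the compound-line value was 0.85 (adjusted p = 0.00697) and fell short of the fold threshold. FGF18, another ligand, and KL, the klotho co-receptor, were also higher in both lines, KL by at least 8.41-fold in the compound line and 5.04-fold in UHRF1-AID cells, against a floor of 3 counts per library because WT libraries had 0. FGF18 in UHRF1-AID cells was not called without WT replicate 1 or 2 or UHRF1-AID replicate 3 (adjusted p from 0.0629 to 0.0834). FGF2 was lower in the compound line (log2 fold change -2.27, standard error 0.29, edgeR adjusted p = 2.85e-06). In all, 3 of 13 genes were higher and 1 lower in the compound line (9.21% and 2.49% of all genes), 3 of 13 higher in UHRF1-AID cells, where 5.77% of all genes were called higher, and 0 of 12 called in DNMT1-AID cells. List medians were 0.12, -0.02 and -0.02, against 0.02, 0.03 and 0.00 for all genes. In DNMT1-AID cells FGFR3 had 56.7, 53.3 and 55.8 CPM, with a log2 fold change of 0.76 (standard error 0.11, edgeR adjusted p = 0.000543). This passed the p threshold but not the fold threshold. So did the compound line against WT already at day 0 (0.79, standard error 0.16, edgeR adjusted p = 0.0411). WT cells themselves had more FGFR3 at day 4 than at day 0 (0.89, standard error 0.16, edgeR adjusted p = 0.00293).

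**Figure D2:**
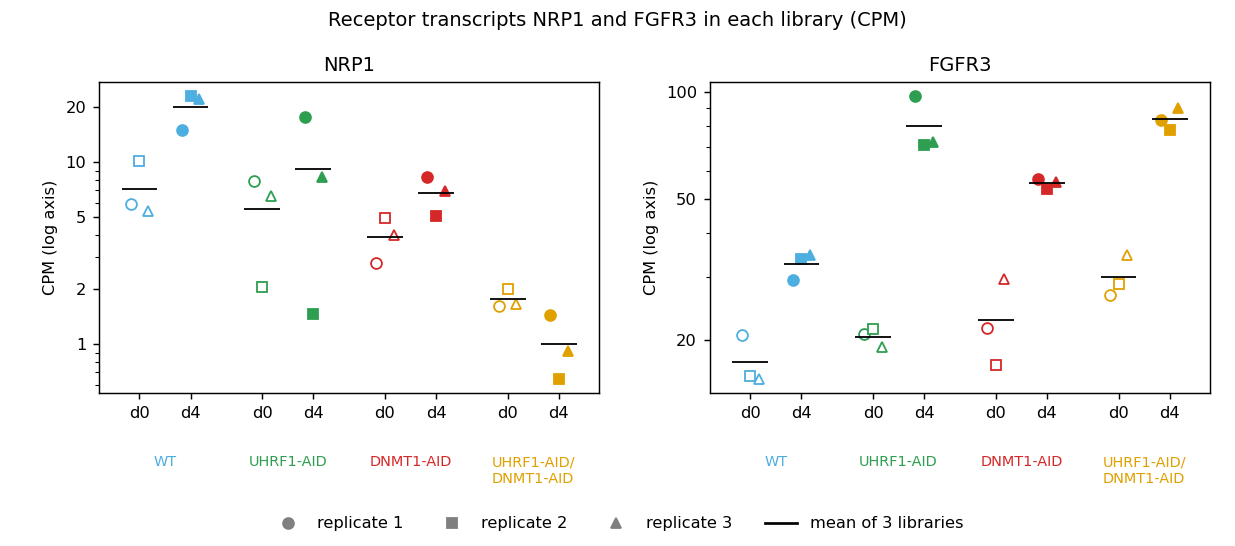
NRP1 and FGFR3, which encode a receptor of SEMA3A and of FGF9, in each of the 24 libraries (CPM, log axis); open symbols are day 0, filled symbols day 4, shapes give the replicate number and black lines the mean of 3 libraries. At day 4 NRP1 in the compound line lay between 0.645 and 1.44 CPM against 15.0 to 23.1 CPM in WT, and FGFR3 between 78.0 and 90.1 CPM against 29.4 to 34.7 CPM.

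Of the other heparan sulfate genes, 0 were called at day 0 (edgeR) and at most 1 against WT at day 4. At day 4 in the compound line 1 of 29 was called, HS3ST6, a 3-O-sulfotransferase that was higher at 0.774 ± 0.0402 CPM (SD, n = 3) while WT libraries had at most 1 count, in a comparison with 9.21% of all genes called higher and 2.49% lower. That count of 1 was 4 without the filter and by DESeq2, 5 with spike-in scaling, 0 with a minimum of 10 counts, and 6 without WT replicate 3. In DNMT1-AID cells, where 0.28% of all genes were called lower and 2.29% higher, 1 of 28 was called, HS3ST3B1, also a 3-O-sulfotransferase, which was lower at 0.179, 0.487 and 0.0661 CPM against 1.16, 1.88 and 1.17 CPM in WT (log2 fold change -2.46, standard error 0.56, edgeR adjusted p = 0.0147). That call rested on single libraries and was lost without WT replicate 2 and without DNMT1-AID replicate 1 or 3 (adjusted p from 0.0626 to 0.122). In UHRF1-AID cells over time GLCE, HPSE, SDC4 and TGFBR3 were higher, 4 of 30 tested, and 0 lower, where 12.1% of all genes were called higher. GLCE was not called without UHRF1-AID day 4 replicate 1 (0.92) or day 0 replicate 3 (0.96), without the filter (0.99), with the length correction (0.92) or with all 24 libraries (0.97), and TGFBR3 not without day 4 replicate 1 (0.79). Over time in the compound line 8 of 29 were called, where 2217 of all 14698 genes were called higher and 11.5% lower. The 8 were 5 higher (HPSE, HS3ST6, HSPG2, NDST2 and SDC4) and 3 lower (HS6ST2, SDC1 and SULF2). In DNMT1-AID cells 3 of 28 were higher (HSPG2, SDC3 and SDC4), where 1194 of all 13850 genes were called higher. In WT 1 of 28 was lower (GPC2), where 6.53% of all genes were called lower.

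No tested protein-coding gene within 500 kb of a member was called lower in any of the 13 comparisons. These neighbours were SEMA3E for SEMA3A, at 306.7 kb, and MICU2, MRPL57, SKA3 and ZDHHC20 for FGF9, and none of these 5 was called. HS3ST1 had no protein-coding neighbour. ANKRD22 had 13, of which 8 were tested in at least 1 comparison. IFIT2, IFIT3, LIPA and RNLS were each called in at least 1 of these, always higher. The share of all genes called in at least 1 comparison was not counted. RNLS was called against WT in the compound line at day 4, where 9.21% of all genes were called higher. It kept that call with each library left out in turn (edgeR adjusted p at most 0.000764). IFIT2, IFIT3 and LIPA were also called higher over time in WT, which lacks a tag, where 5.37% of all genes were called higher. Leaving out 1 library there gave log2 fold changes of 1.90 to 2.15, 3.19 to 3.44 and 0.99 to 1.25. LIPA was called only over time. STAMBPL1, 27.9 kb away, was not called, while the interferon-induced IFIT3, 476.1 kb away, was higher than in WT at day 4 in DNMT1-AID cells by 2.05 on the log2 scale (standard error 0.35, edgeR adjusted p = 0.0281). That call was lost without any WT library and without DNMT1-AID replicate 3 (adjusted p from 0.0635 to 0.103). In UHRF1-AID cells against WT at day 4, a comparison that crosses the folders with 5.77% of all genes called higher, IFIT3 kept its call. There edgeR's adjusted p was at most 0.033 with each library left out in turn, while in the compound line it reached 0.153. HS3ST1 overlaps 1 gene on the same strand, the pseudogene RNA5SP156, which had at most 3 counts.

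Across the 24 libraries the member pair with the closest profiles was ANKRD22 and HS3ST1, with a Pearson r of log2 CPM of 0.797. The other 5 pairs had r between 0.26 and 0.472. Of 15699 genes, the profile most like HS3ST1 was that of PHLDA1 (r = 0.964), then STK39 (0.954) and ERO1A (0.945), and the one most like ANKRD22 was VPS52 (0.932), then IVNS1ABP (0.931) and NUBPL (0.917). SEMA3A and FGF9 had no match as close, with BTNL9 (0.753), EFL1 (0.731) and PCDHAC1 (0.726) nearest to SEMA3A and GPR161 (0.746), CLCN6 (0.735) and ADAM19 (0.724) nearest to FGF9. These are descriptions over libraries that share lines, days and alignment folders.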

How the data were processed

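RNA-seq of HCT116 derivatives covered 8 groups of 3 libraries, mapped to groups from the sample titles and treatment labels. The authors prepared libraries with a NEBNext Ultra RNA kit, trimmed paired reads (Trimmomatic), mapped them to hg38 (STAR), summed them by gene (featureCounts) and deposited these raw counts without normalization. The strand setting and the treatment of reads with several alignments are not given in the sources used here, so values of genes that overlap, lie antisense or have near copies are uncertain. A symbol was found for 58207 of the 58735 Ensembl genes. Each table also lists 92 ERCC sequences, absent in 15 libraries and 0.891% to 1.65% of counts in the other 9, which stayed out of library sizes and tests. Library totals were between 15824804 and 25073821 counts.

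From the counts, each pair of groups was fitted with edgeR 4.0.16 in R 4.3.3 (filterByExpr, TMM, robust quasi-likelihood test, Benjamini-Hochberg adjustment over all genes tested) on its 6 libraries. Calls required an adjusted p under 0.05 together with a log2 fold change beyond 1 in either direction. Standard errors were derived from the fitted log2 fold change and its F statistic. Log2 CPM for correlations used a prior count of 2. The members and lists were chosen with earlier results of these data known. Named list genes were the called ones, at most 3 by p in each direction in each comparison, and others named after their values were seen, to account for a count (L1CAM and PLXNA3 among them). Protein-coding neighbours within 500 kb, the 3 genes most correlated with each member and the genes ranked next to it were also named. Fits were tested on simulated counts.

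Alternatives were DESeq2-style size factors (RLE), no filter, a minimum of 10 counts per library, DESeq2 1.42.0, a replicate block, a single fit over all 24 libraries, a correction for gene length, spike-in scaling and leaving out each library in turn. The length correction was meant to take out a loess of each library's deviation on gene length and to keep the median. As run it did not keep the scaling of each library. The median of all genes was -0.515 under it in the compound line over time, against 0.018 in the main fit. Its values mix library scaling with gene length and cannot show a dependence on length. To see whether replicate numbers pair libraries, deviations from group means were correlated between same-numbered libraries. Only UHRF1-AID day 4 against day 0 had all 3 over 0.1 (0.228, 0.143 and 0.122), so only there was a fit with pairs used in the results. In the compound line over time every library also correlated best with its own number, at 0.0789 to 0.0915. In DNMT1-AID cells over time the values were -0.0874, -0.135 and -0.045. The labels do not give a pairing, and the main fits did not use one. All 24 replicate pairs differed by more than sampling noise. Figures were drawn with matplotlib 3.10.9.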

Additional observations from a re-analysis of the deposited data

Results flagged for a closer look

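A few responses to the 4 days moved in opposite directions in different lines, and these differences were not tested. For FGF9 the log2 fold change from day 0 to day 4 was -1.38 in the compound line and 0.98 in WT, a difference of -2.36, with every library of day 4 below every library of day 0 in the former and above in the latter. For NRP1 it was -0.82 in the compound line and 1.47 in WT, a difference of -2.30. NRP1 also rose by 0.78 in DNMT1-AID cells, which puts the compound line -1.61 below them. These lines all cross the alignment folders between the days, in the same way.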

How the results depend on the processing

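Of 370 values of the 4 genes under alternatives other than leaving out a library, 343 kept their side of the threshold or moved by less than the spread between replicates, 10 gained a call, 4 lost one and 13 moved further. The replicate block changed 2 calls of members, SEMA3A in DNMT1-AID against WT at day 0 (-2.78) and SEMA3A in UHRF1-AID cells over time (-1.01), and in the compound line over time every library correlated best with its own number (0.0789 to 0.0915), a hint only. SEMA3A in DNMT1-AID cells at day 0 was -2.55 with the length correction and -2.71 with all 24 libraries. Against UHRF1-AID cells DNMT1-AID cells were at -2.52 for SEMA3A by DESeq2 and, for FGF9, at -1.71 without the filter and -1.70 by DESeq2. In the compound line at day 0 FGF9 was at 1.25 with the length correction and ANKRD22 at -1.12 without the filter and with all libraries, -1.13 by DESeq2 and -1.17 with the length correction. In UHRF1-AID cells over time SEMA3A was at -1.05 with the length correction and HS3ST1 at -1.82 without the filter. With the length correction the day effect in WT was -1.26 for SEMA3A, -0.72 for ANKRD22 and -1.21 for HS3ST1. In DNMT1-AID it was -2.14 for ANKRD22, and in the compound line -1.98 for FGF9, -3.42 for ANKRD22 and -3.16 for HS3ST1. The median of all genes was then -0.237 in WT, -0.315 in DNMT1-AID and -0.515 in the compound line. The correction did not keep the scaling of each library, so these values do not show a dependence on gene length. Spike-in scaling moved the median of all genes by -0.346 in DNMT1-AID and -0.49 in compound-line cells against WT at day 4, and the members with it, to -2.62 (SEMA3A), -2.50 (FGF9) and -2.14 (ANKRD22), and to -2.17 (FGF9), -3.78 (ANKRD22) and -2.96 (HS3ST1). The causes were not tested. A minimum of 10 counts gave no value for ANKRD22 where compound-line libraries of day 4 enter, since 1 of them had 7 counts.

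Leaving out 1 library gave for SEMA3A -1.12 to 0.13 (0.04 without UHRF1-AID replicate 3) in UHRF1-AID, -2.89 to -2.56 in DNMT1-AID and -1.96 to -0.20 in compound-line cells against WT at day 0, -1.73 to 0.51 (0.00 and 0.02 without compound-line replicates 2 and 3) in the compound line against UHRF1-AID, -1.56 to -0.32 in UHRF1-AID cells over time, -1.23 to -1.17 in WT over time, and -0.63 to -0.04 in UHRF1-AID and -2.22 to -0.40 in the compound line against WT at day 4. For FGF9 it gave 0.73 to 1.62, -0.98 to -0.10 and 0.44 to 0.95 in UHRF1-AID, DNMT1-AID and compound-line cells against WT at day 0, -2.28 to -1.15 in DNMT1-AID against UHRF1-AID, 0.81 to 1.69 and -0.90 to -0.02 in the compound line against DNMT1-AID and UHRF1-AID and -1.07 to -0.23 over time in DNMT1-AID. For ANKRD22 it gave -0.72 to 0.02 in the compound line against UHRF1-AID at day 0. For HS3ST1 it gave -0.01 to 0.29 in DNMT1-AID against WT at day 0, -1.01 to -0.70 in the compound line against DNMT1-AID, -2.51 to -1.49 in UHRF1-AID cells over time, and -1.65 to -0.63 in UHRF1-AID and -0.27 to 0.41 in DNMT1-AID cells against WT at day 4.

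Without DNMT1-AID day 0 replicate 3 the genes called lower against UHRF1-AID went from 0 to 1127, and those called higher in the compound line against DNMT1-AID from 1 to 1017. Counts called lower also moved with spike-in scaling at day 4, from 38 to 180 in DNMT1-AID and from 354 to 1804 in compound-line cells, and with the length correction over time, from 1686 to 3990 in the compound line, 925 to 1976 in DNMT1-AID and 888 to 1504 in WT. Against WT at day 4 they also went from 38 to 69 without the filter in DNMT1-AID, and in UHRF1-AID from 170 to 54 with the length correction, 274 with all 24 libraries and 257 without the filter. At day 0 DESeq2 gave 6 for 0 in UHRF1-AID and 2 for 1 in DNMT1-AID against WT, 29 for 0 in DNMT1-AID against UHRF1-AID, and 25 for 3 and 41 for 18 in the compound line against DNMT1-AID and UHRF1-AID. Without the filter these 5 counts were 10, 2, 138, 34 and 74. With the length correction the last 3 were 30, 10 and 38, with all 24 libraries the last 2 were 18 and 9, with the block the last was 40, and the DNMT1-AID count against WT was 0 under each of these 3 settings. Counts called higher against WT went from 92 to 404 with the length correction and 56 with the block in the compound line at day 0, and at day 4 to 164, 313 and 444 with a minimum of 10 counts and to 492, 1375 and 2139 without the filter in DNMT1-AID, UHRF1-AID and compound-line cells. Among the list counts, semaphorin genes in DNMT1-AID cells at day 4 went from 2 to 4 without the filter and 1 with all 24 libraries (9 without WT replicate 3), and FGF genes in the compound line to 7 for 4 without the filter. Levels near 1 CPM rest on few counts, which limits ANKRD22 and FGF9 at day 4.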
